A study of Mus musculus with 69 samples.

Results

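Myc, Mycn, Mycl, Max, Lin28a, Lin28b and Trim71, 7 regulators of growth and proliferation, were followed in mouse embryonic stem cells (ESCs) whose histone variant H3.3 can no longer be acetylated at lysine 27. The genes were taken by symbol from the mRNA-seq count table, where they are 7 of 16263 genes, and all 7 passed the filter on low counts, as 14061 genes did. The table holds 6 libraries: WT_1 and WT_2 from the parental J1 line (strain background 129S4/SvJae, from the inner cell mass of the blastocyst), Mut18_1 and Mut18_2 from H3.3K27R clone 18, and Mut43_1 and Mut43_2 from H3.3K27R clone 43. In each clone CRISPR-Cas9 changed lysine 27 to arginine in all endogenous copies of H3f3a and H3f3b, the genes that encode H3.3, and all 3 lines were grown on feeder cells and then passaged without them before harvest. Each mutant line is 1 clone, so that in either clone its history and its genotype cannot be told apart. The p-values by clone measure the spread between duplicate libraries. Those of the 4 mutant against the 2 WT libraries pool the clones, so their spread holds differences between clones too. They count the duplicates of 1 clone as separate libraries. ATAC-seq peak lists from 6 further libraries, with the same 3 lines in duplicate, were used for the chromatin around the 7 genes.

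Myc, Mycn and Mycl are basic helix-loop-helix leucine zipper transcription factors that bind the E-box CACGTG as dimers with Max. They drive ribosome biogenesis, metabolism and cell cycle entry, and Myc and Mycn sustain ESC self-renewal. Lin28a and Lin28b are RNA-binding proteins that hold back maturation of the let-7 microRNAs by binding their precursors, and Trim71 is a TRIM-NHL protein of the same early embryonic program. let-7 in turn represses transcripts that carry matches to its seed, Lin28a, Lin28b and Trim71 among its known targets, so that each side restrains the other.

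The let-7 sequences are given first because the results on Lin28a, Lin28b, Trim71 and the let-7 target genes refer to them. RefSeq (GRCm38.p6) lists 9 mature 5p members of the mouse family, including miR-98, each 22 bases long, and all 9 share the seed GAGGUAG at bases 2 to 8, in capitals here. The 4 printed differ only outside the seed.
let-7a-5p (chr13:48538239-48538260, minus strand): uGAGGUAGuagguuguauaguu
let-7d-5p (chr13:48536078-48536099, minus strand): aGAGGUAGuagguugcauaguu
let-7g-5p (chr9:106178846-106178867, plus strand): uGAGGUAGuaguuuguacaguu
miR-98-5p (chrX:151913229-151913250, plus strand): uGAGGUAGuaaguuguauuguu
In the loop of the precursor, the bases GGAG are the known binding motif of Lin28. They were found between the mature arms in 9 of the 12 RefSeq hairpins of the family. The Mirlet7g hairpin (chr9:106178840-106178927, plus strand) holds them, in capitals, and the Mirlet7b hairpin does not.
Mirlet7g: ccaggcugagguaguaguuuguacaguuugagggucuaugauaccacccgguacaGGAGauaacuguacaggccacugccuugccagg
Mirlet7b: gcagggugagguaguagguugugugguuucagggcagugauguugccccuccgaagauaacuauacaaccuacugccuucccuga
Mature let-7 was not measured, since the libraries were made from mRNA.

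The letters CTACCTC pair with the seed, and CTACCTCA adds the adenine that often strengthens a let-7 site. The longest GENCODE 3′ UTR of each gene was searched for both on the transcript strand. Lin28a held 2 matches in 2775 bases, both of 8 letters. Lin28b held 4 in 4445 bases, 1 of them of 8 letters, and Trim71 held 4 in 5512 bases, all of 8 letters. Myc, Mycn, Mycl and Max held none. Among all 21020 genes with an annotated 3′ UTR, 9.02% held a 7-letter match and 3.06% an 8-letter one. Long UTRs hold more: among genes with a 3′ UTR of between 0.8 and 1.2 times the length of each, 14.4% held a 7-letter match at the length of Lin28a, 24.2% at that of Lin28b and 29.4% at that of Trim71. A match of letters is a description and not a measured site. The 8-letter matches are printed 5′ to 3′ on the transcript strand, each within 24 bases, with the match in capitals.
Lin28a, match 1 (chr4:134005188-134005211, minus strand): gcacagcctgttgaaCTACCTCAt
Lin28a, match 2 (chr4:134004550-134004573, minus strand): gagatcgccacaaacCTACCTCAc
Lin28b, match 1 (chr10:45381021-45381044, minus strand): acccgggcgggaagtCTACCTCAt
Trim71, match 1 (chr9:114512471-114512494, minus strand): aacattgcctaagtcCTACCTCAg
Trim71, match 2 (chr9:114512375-114512398, minus strand): agtgataatttctatCTACCTCAa
Trim71, match 3 (chr9:114509046-114509069, minus strand): tttagtatggattttCTACCTCAa
Trim71, match 4 (chr9:114509020-114509043, minus strand): ttggcaaaaagttgtCTACCTCAc

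**Figure D1:**
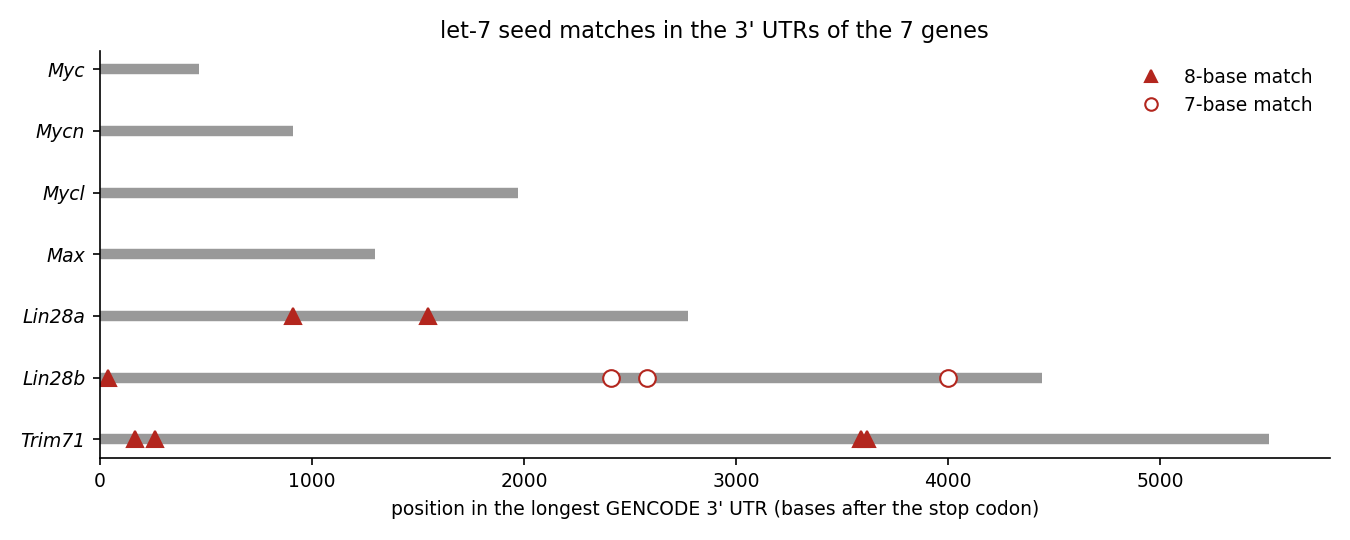
Positions of let-7 seed matches in the longest GENCODE 3′ UTR of each of the 7 genes, in bases after the stop codon; grey bars give the UTR length, filled triangles 8-letter and open circles 7-letter matches. Lin28a has 2, Lin28b and Trim71 have 4 each, and the 4 genes of the Myc and Max group have none.

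The 6 RNA libraries held between 14992756 and 15143998 counts. Of the 8 ESC markers, 6 were higher and 2 lower in the mutants, with Pou5f1, a core pluripotency factor, at a log2 fold change of -0.27, Sox2 at 0.22 and Nanog at 0.20. H3f3a, one of the edited genes, was at -0.23 and H3f3b, the other, at 0.03, and counts per gene cannot show the edited codon. Markers of other cells moved with genotype: the summed normalized count of 10 fibroblast markers was 3083 to 4312 in WT and 1991 to 2646 in the mutants, with 8 of 9 tested lower. That of 4 primed epiblast markers was 11005 to 11542 against 6483 to 6588, with 3 of 4 lower and Otx2 not passing. That of 4 mesendoderm markers was 458 to 465 against 153 to 194, with 2 of 3 tested lower. The neural and primitive endoderm lists were mixed: the sum of 4 neural markers was 2845 to 3072 against 1224 to 1438, carried mostly by Nes, with 2 of 3 tested lower and Pax6 higher, and that of 6 primitive endoderm markers was 347 to 404 against 217 to 265, carried mostly by Dab2, with 1 of 5 tested lower and Gata4 higher. The sums of trophoblast markers overlapped, with 2 of 4 tested lower and 1 higher. No marker was at 0 in every library, and WT_1 held the most fibroblast signal. The part these cells take in the results below was not tested. In such bulk samples, fewer cells of a type and less RNA per cell cannot be told apart. A second feature of the mutants touches the gene lists: the 1182 tested genes on chromosome 11 had a median log2 fold change of 0.39 against -0.03 for the others, and none of the 7 genes lies there.

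Of the 7 genes, 5 differed between the 4 mutant and the 2 WT libraries at an adjusted p under 0.05 in edgeR's quasi-likelihood test. Lin28b, Lin28a and Mycn were lower and Trim71 and Mycl higher, while Myc and Max did not pass. Over all tested genes 48% differed, 24.5% lower and 23.5% higher, so that nearly every second gene of the table passed the same test and 5 of 7 is read against that share. None of the 7 changed by more than 2-fold, which 8.93% of genes did. In each line the order of expression per transcript length was topped by Lin28a and Mycn. The plot of normalized counts shows each library.

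**Figure D2:**
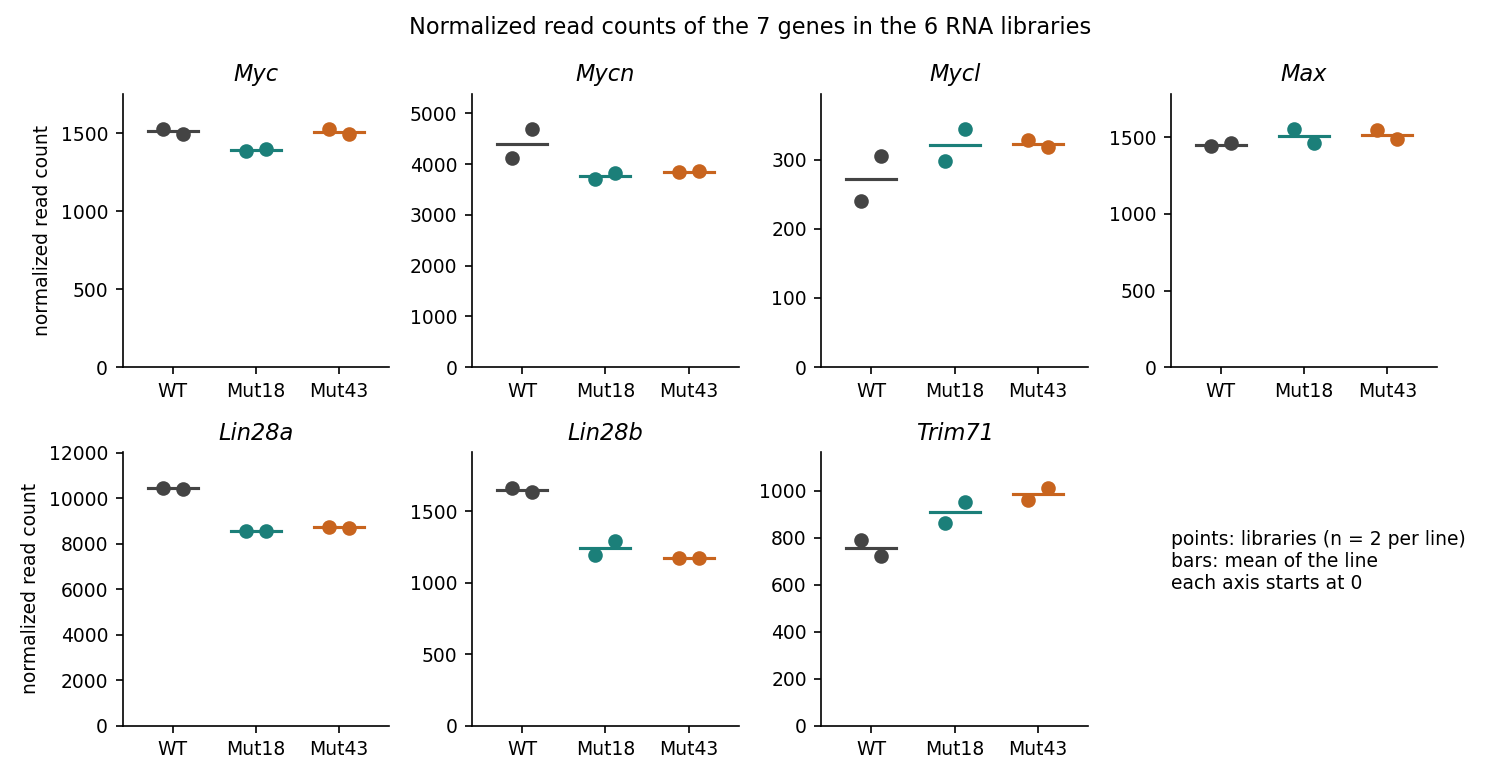
Normalized read counts (vertical axes, each from 0) of the 7 genes in the 2 libraries of each line; points are libraries and bars the mean of a line. The mutant points of Lin28b, Lin28a and Mycn lie below both WT points and those of Trim71 above, while Myc, Mycl and Max overlap.

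Lin28a (ENSMUSG00000050966.9, chr4:134003330-134018841, minus strand) is the main Lin28 paralog of ESCs. It had 10457 and 10392 normalized counts in the WT libraries, 8543 and 8534 in Mut18, with 8752 and 8672 in Mut43. All 4 mutant libraries lay below both WT libraries, and the gap was many times the spread between duplicates. The mutants were 17.3% lower, a log2 fold change of -0.27 (SE 0.035, 95% interval -0.35 to -0.20, adjusted p = 1.7e-06 in edgeR). The gene overlaps Gm13061, a noncoding transcript on the opposite strand, and the sources used here do not say whether the counting used strand.

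Lin28b (ENSMUSG00000063804.8, chr10:45376620-45486395, minus strand), which in many cell types acts in the nucleus on primary let-7 transcripts, showed the largest change of the 7 in these libraries. Its normalized counts were 1664 and 1633 in the WT libraries, 1190 and 1289 in Mut18, with 1175 and 1170 in Mut43. The mutants again lay wholly below WT. The mutants were 26.8% lower, a log2 fold change of -0.45 (SE 0.047, 95% interval -0.55 to -0.35, adjusted p = 1.1e-07 in edgeR). The log2 ratio of Lin28b to Lin28a counts was -2.65 and -2.67 in WT, and -2.84, -2.73, -2.90 and -2.89 in the mutants. Lin28b was therefore lower relative to its paralog in each mutant library than in either WT library, by 0.18 between the group means. The exact two-sided permutation p was 0.0667, the smallest this design of 2 against 4 libraries allows. Mut18_2 lay nearer to the WT libraries than to Mut18_1, so in Mut18 the gap was not clear of the spread between duplicates.

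Trim71 (ENSMUSG00000079259.2, chr9:114507133-114564369, minus strand), a ubiquitin ligase and mRNA repressor that is essential in early development, moved the other way. Its normalized counts were 793 and 723 in the WT libraries, 865 and 954 in Mut18, with 963 and 1014 in Mut43. Every mutant library was above both WT libraries. The mutants were 25.1% higher, a log2 fold change of 0.32 (SE 0.063, 95% interval 0.19 to 0.46, adjusted p = 0.00026 in edgeR). Trim71 holds the most 8-letter let-7 matches of the 7 genes, printed above, and differs in direction from Lin28a and Lin28b, which hold such matches too. Any part of let-7 in these changes was not tested. C130032M10Rik overlaps it on the opposite strand.

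Mycn (ENSMUSG00000037169.15, chr12:12936093-12941914, minus strand) is the Myc paralog with the highest level per length in these cells. It had 4119 and 4690 normalized counts in the WT libraries, 3704 and 3831 in Mut18, with 3838 and 3864 in Mut43. The mutants lay below both WT libraries, although the WT duplicates differed from each other by more than WT_1 differed from the mutants. The log2 fold change was -0.21 (SE 0.046, 95% interval -0.31 to -0.11, adjusted p = 0.00078 in edgeR). Without WT_2 it was -0.11 at an adjusted p of 0.119, so this call rests on that library.

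Myc (ENSMUSG00000022346.15, chr15:61985391-61990374, plus strand), the best known of the family, had 1527 and 1499 normalized counts in the WT libraries, 1386 and 1398 in Mut18, with 1525 and 1496 in Mut43. Mut43_1 lay between the WT libraries, Mut43_2 just below both, and the Mut18 libraries further below. The log2 fold change of -0.06 did not pass (SE 0.048, 95% interval -0.16 to 0.04, adjusted p = 0.314 in edgeR). The log2 ratio of Mycn to Myc was 1.43 and 1.65 in WT, and 1.42, 1.45, 1.33 and 1.37 in the mutants. The difference of -0.15 was not larger than the spread between the WT libraries (exact two-sided permutation p = 0.133). It was -0.25 without WT_1 and -0.038 without WT_2.

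Mycl (ENSMUSG00000028654.13, chr4:122995652-123002485, plus strand), the remaining paralog, had 240 and 305 normalized counts in the WT libraries, 297 and 344 in Mut18, with 328 and 319 in Mut43. WT_2 overlapped the mutants and WT_1 was below them. The log2 fold change was 0.24 (SE 0.094, 95% interval 0.04 to 0.44, adjusted p = 0.0402 in edgeR). The call was lost under several alternatives, and without WT_1 the value was 0.081 at an adjusted p of 0.591.

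Max (ENSMUSG00000059436.13, chr12:76937269-76962201, minus strand), the common dimer partner, had 1440 and 1465 normalized counts in the WT libraries, 1553 and 1464 in Mut18, with 1545 and 1490 in Mut43. The groups overlapped. Its log2 fold change was 0.06 (SE 0.044, 95% interval -0.03 to 0.15, adjusted p = 0.289 in edgeR). Counted by overlap alone, the mutants of Mycn, Lin28a and Lin28b lay below both WT libraries, 3 of 7 against 30.4% of all tested genes, and those of Trim71 above, 1 of 7 against 29.4%, together 4 of 7 against 59.8%.

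Taken one clone at a time, 4 of 7 genes passed in Mut18 (background 41.3%) and 4 of 7 in Mut43 (background 46.8%). They were Lin28a, Lin28b, Mycn and Trim71 in each, and the clones share their WT libraries. Without WT_2, Mycn passed in neither clone, at -0.12 in Mut18 (adjusted p = 0.0813 in edgeR) and -0.090 in Mut43 (adjusted p = 0.195 in edgeR), and without Mut18_2, Trim71 did not pass in Mut18, at 0.19 (adjusted p = 0.0928 in edgeR). Lin28a was at a log2 fold change of -0.29 in Mut18 and -0.26 in Mut43, Lin28b at -0.41 and -0.49, and Mycn at -0.23 and -0.19. Trim71 was at 0.26 in Mut18 (adjusted p = 0.00273) and 0.38 in Mut43 (adjusted p = 3.7e-05), both from edgeR. Mycl did not pass in either clone, at 0.23 and 0.25. Myc was at -0.12 in Mut18 (edgeR, adjusted p = 0.0543) and at -0.0021 in Mut43. Set directly against each other, Mut43 and Mut18 differed in none of the 7 genes in edgeR, where 0.327% of all genes differed. At an unadjusted p under 0.05, which 8.52% of all genes reached, there was 1 gene, Myc, 0.12 higher in Mut43 (95% interval 0.02 to 0.22, adjusted p = 0.487 in edgeR). The widest interval between the clones was that of Mycl, from -0.20 to 0.22, and a difference of that size in Mycl would not have been detected with these libraries. The intervals of the other genes were narrower, that of Lin28a from -0.05 to 0.11.

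**Figure D3:**
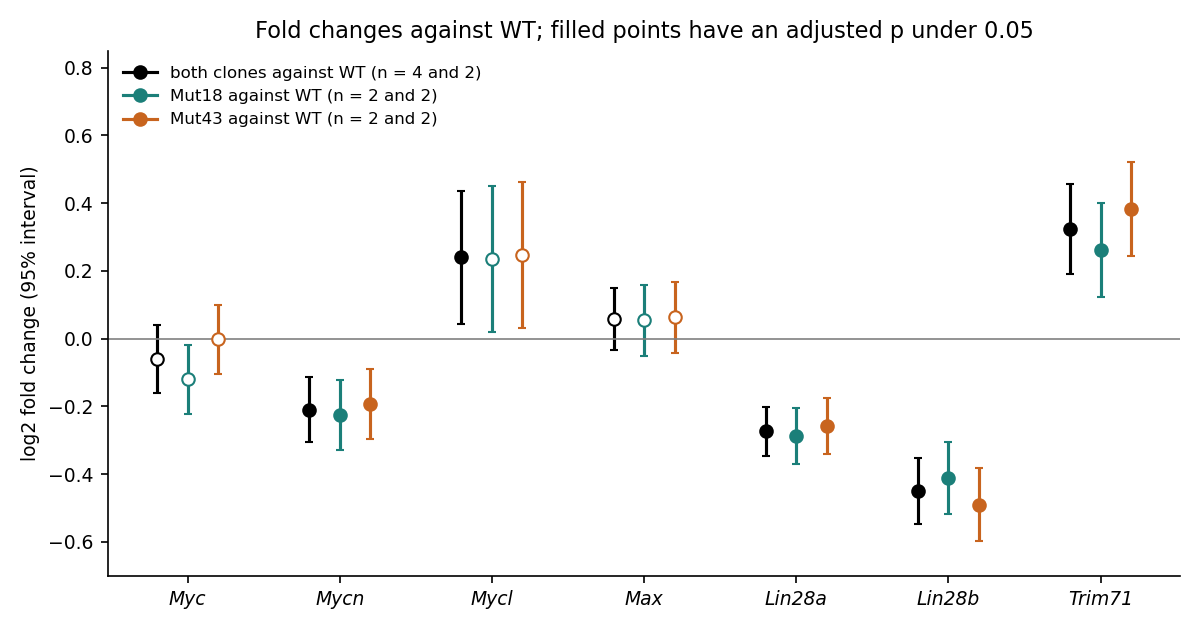
Log2 fold changes against WT (vertical axis) with 95% intervals for the 7 genes, for both clones together (black), Mut18 (green) and Mut43 (orange); filled points have an adjusted p under 0.05. Lin28b, Lin28a and Mycn lie below 0 and Trim71 above it in all 3 comparisons, which share the 2 WT libraries.

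Levels were compared between genes as RPKM, which scales counts by exon length and TMM-scaled library size. In WT, Lin28a stood at an RPKM of 173 (SD 0.76, n = 2), Mycn at 88.8 (SD 8.1), Myc at 37.0 (SD 0.49), Max at 26.8 (SD 0.33), Lin28b at 12.1 (SD 0.16), Trim71 at 5.39 (SD 0.35) and Mycl at 4.48 (SD 0.75). Lin28a was above 98.4% of tested genes and Mycl above 49.1%. Only Trim71 and Mycl came close to each other, with WT libraries at 5.64 and 5.15 against 3.95 and 5.01. The other neighbours in the order were separated by far more than their spread. In the mutants the order was kept, with Lin28a at 143 (SD 1.8, n = 4), Mycn at 76.8, Myc at 35.5, Max at 27.9, Lin28b at 8.84, Trim71 at 6.75 and Mycl at 5.29, so that Lin28b came nearer to Trim71.

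The genes with the profile most like each member over the 6 libraries were found by the root mean square difference of centred log2 counts among 11076 other genes. They are a description of 6 libraries in 3 lines. Closest to Lin28a were Tnrc6b, a scaffold protein of microRNA silencing, at 0.016, Slc7a3, a transporter of cationic amino acids, at 0.017, and Rsrp1 at 0.017. Closest to Lin28b were Bivm at 0.017, the cohesin subunit Stag1 at 0.020 and the elongation factor Ell2 at 0.023. Trim71 was nearest to Mga, a Max partner on a list below, at 0.023, then Gm14325 and Bfar. Mycn was nearest to Usf2, another E-box factor, then Lrpap1 and Rab24. Myc was nearest to Fam160a2, Ankrd13c and Mpzl2, Mycl to Lad1, Pnp2 and A430005L14Rik, and Max to Faf1, Cenpn and Rpl4. Such likeness was common: 238 genes lay within 0.1 of Mycl, 646 of Lin28b, 1011 of Trim71, 1792 of Mycn and 1809 of Lin28a. For Myc it was 3509 and for Max 4294, whose own profile was nearly flat. The functions named for some neighbours are therefore no sign of a link.

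The let-7 target genes were the list with the most genes lower. Of its 20 genes, 12 were lower, 1 was higher and 7 did not pass, with a median log2 fold change of -0.36 against -0.0041 over all genes and 24.5% of all genes lower. By clone the median was -0.30 in Mut18 and -0.38 in Mut43, which share the WT libraries. Igf2bp3, an RNA-binding protein of the oncofetal program, had 1867 and 1920 normalized counts in WT and between 966 and 1043 in the mutants, a log2 fold change of -0.93 (SE 0.044). Insr, the insulin receptor, had 344 and 353 in WT and between 202 and 207 in the mutants, at -0.76 (SE 0.078). In both genes the mutant libraries were far below WT. Among the others lower were Cdk6 at -0.70, the chromatin protein Hmga2 at -0.68, Ccnd1, which encodes cyclin D1, at -0.55, the IGF1 receptor Igf1r at -0.53, Arid3a and E2f5 at -0.41, Arid3b at -0.37, Zfp322a at -0.35 and Igf2bp1 at -0.12. E2f2, a transcription factor of S-phase genes, was the single gene higher, with 106 and 123 in WT and between 151 and 180 in the mutants, at 0.49 (SE 0.118). A 7-letter seed match stood in the longest 3′ UTR of 16 of the 20 genes, against 9.02% of all genes with an annotated 3′ UTR. The list was chosen as let-7 targets, and the share at its UTR lengths was not worked out. Ccnd1 and Cdk6 were among the 4 listed genes that had no match there. Without WT_1, the library richest in fibroblast markers, the median was -0.34, and without WT_2 it was -0.37. WT_2 also held a higher fibroblast sum (3083) than any mutant library (at most 2646). Leaving out WT_1 therefore does not remove that difference. In the same mutants 8 of 9 fibroblast, 3 of 4 primed epiblast and 2 of 3 mesendoderm markers were lower, and their part in these counts was not tested.

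Among the 14 genes of let-7 biogenesis and silencing, 2 were higher, 2 lower and 10 did not pass, with a median of -0.0098. The share that passed was 28.6% against 48% of all genes. Dicer1, which cuts precursor to mature microRNA, had 2536 and 2540 normalized counts in WT and between 2983 and 3224 in the mutants, a log2 fold change of 0.31 (SE 0.043). Tnrc6c, a silencing scaffold on chromosome 11, was higher at 0.23. Prkra, a double-stranded RNA-binding partner of Dicer, was lower at -0.52 (SE 0.091), with 242 and 255 in WT and between 163 and 185 in the mutants. Tnrc6b was lower at -0.30. Drosha, Dgcr8 and Xpo5 and the uridylyl transferases Zcchc11 and Zcchc6, which Lin28 recruits to let-7 precursors, were among those that did not pass.

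Of 17 partners in the Myc and Max network, 9 were higher, none lower and 8 did not pass in edgeR, with a median log2 fold change of 0.20. Over all tested genes 23.5% were higher and 24.5% lower. Mlx, a Max-like protein that pairs with glucose-sensing factors, had 829 and 811 normalized counts in WT and between 1089 and 1126 in the mutants, at 0.44 (SE 0.049), and lies on chromosome 11. Mxi1, an Mxd-family repressor that competes with Myc for Max, had 389 and 369 in WT and between 470 and 511 in the mutants, at 0.37 (SE 0.072). The coactivators Trrap at 0.35, Kat2a at 0.34, Ep400 at 0.30 and Ruvbl2 at 0.22 were also higher, as were Mga at 0.28, Zbtb17, which encodes the Myc partner Miz1, at 0.20, and Mnt at 0.16. Kat2a and Mnt also lie on chromosome 11. At an unadjusted p under 0.05 edgeR also gave 0 lower. DESeq2 gave 0 lower and 7 higher, where over 14061 genes it gave 2708 lower and 2720 higher. Scaling by library size alone gave 1 lower and 7 higher, against 3981 lower and 2779 higher over all genes. Without WT_2 there were 7 higher.

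Of 30 Myc target genes, 7 were higher, 4 lower and 19 did not pass, with a median of 0.04. The share that passed (36.7%) was below that of all genes, of which 23.5% were higher and 24.5% lower. Of the 7 higher, 5 lie on chromosome 11: Shmt1, an enzyme of one-carbon metabolism, at 0.55, Mybbp1a at 0.54, the nucleolar protein Npm1 at 0.44, Nme2 at 0.33 and Nme1 at 0.29. Rrp12 and Rrp9, 2 ribosome biogenesis factors on other chromosomes, were at 0.22 and 0.15. Ccnd2, which encodes cyclin D2, was lower, with 879 and 808 normalized counts in WT and between 440 and 636 in the mutants, at -0.65 (SE 0.090). Cdk4, its kinase partner, was at -0.36 (SE 0.039), with 7448 and 7820 in WT and between 5793 and 6224 in the mutants. Ldha at -0.14 and Hspe1 at -0.13 were the other 2 lower. Other scalings moved these counts, to 6 higher and 7 lower by library size alone. With chromosome 11 left out of the scaling they were 11 higher and 4 lower. The counts over all tested genes moved too, from 3308 higher and 3441 lower to 2779 and 3981, and to 3712 and 3179. Without WT_2 the median of the list was 0.087.

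Of 18 tested cyclins, kinases and activators, 4 were higher, 6 lower and 8 did not pass, with a median of -0.01. The share that passed was 55.6%, near the 48% of all genes. Lower were the cyclin D to Cdk4/6 genes of early G1, Cdk6, Ccnd2, Ccnd1 and Cdk4, at the values given above, together with Ccne2 at -0.29 and Ccna2 at -0.14. Ccnd3, the remaining D-type cyclin, was higher instead, with 1252 and 1258 normalized counts in WT and between 1464 and 1594 in the mutants, at 0.30 (SE 0.047). E2f2, Ccnb2 at 0.13 and Cdk2 at 0.13 were the others higher, and without WT_1 there were 2 higher and 5 lower. Ccnd1, Cdk6 and E2f2 are counted in the let-7 list too, and Ccnd2 and Cdk4 in the Myc target list.

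Of 19 proliferation and replication genes, 5 were higher, 5 lower and 9 did not pass, with a median of -0.0064. The share that passed was 52.6%, also near the 48% of all genes. Higher were Top2a, the topoisomerase of dividing cells, at 0.55 (SE 0.044), the replication licensing factor Cdc6 at 0.49 and the mitotic kinase Aurkb at 0.39, all 3 on chromosome 11, with Mcm5 at 0.25 and Cdt1 at 0.24. Lower were Foxm1, a transcription factor of mitotic genes, at -0.23, the proliferation marker Mki67 at -0.21, Tyms at -0.20, Mcm7 at -0.13 and Rrm2 at -0.11. Mki67 stood at 6611 and 6081 normalized counts in WT and between 5268 and 5635 in the mutants, without overlap. Without WT_2 the counts were 5 higher and 3 lower.

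Of 10 cell cycle inhibitors, 1 was higher, 5 lower and 4 did not pass, with a median of -0.20. Over all genes 23.5% were higher and 24.5% lower. Cdkn1c, the imprinted inhibitor p57, fell from 944 and 1020 normalized counts in WT to 582 and 558 in Mut18 and 444 and 438 in Mut43, at -0.96 (SE 0.086). Rb1, the retinoblastoma gene, was at -0.37, Cdkn1a (p21) at -0.32 and Cdkn1b (p27) at -0.26. Cdkn2c was at -1.13 on low counts, between 9.1 and 35.1 in all libraries, with WT_2 inside the mutant range. Cdkn2a, which encodes p16 and p19, rose from 91.8 and 84.3 in WT to between 141 and 175, at 0.81 (SE 0.128). Without WT_1 the counts were 2 higher and 3 lower, and without WT_2 they were 1 and 4.

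**Figure D4:**
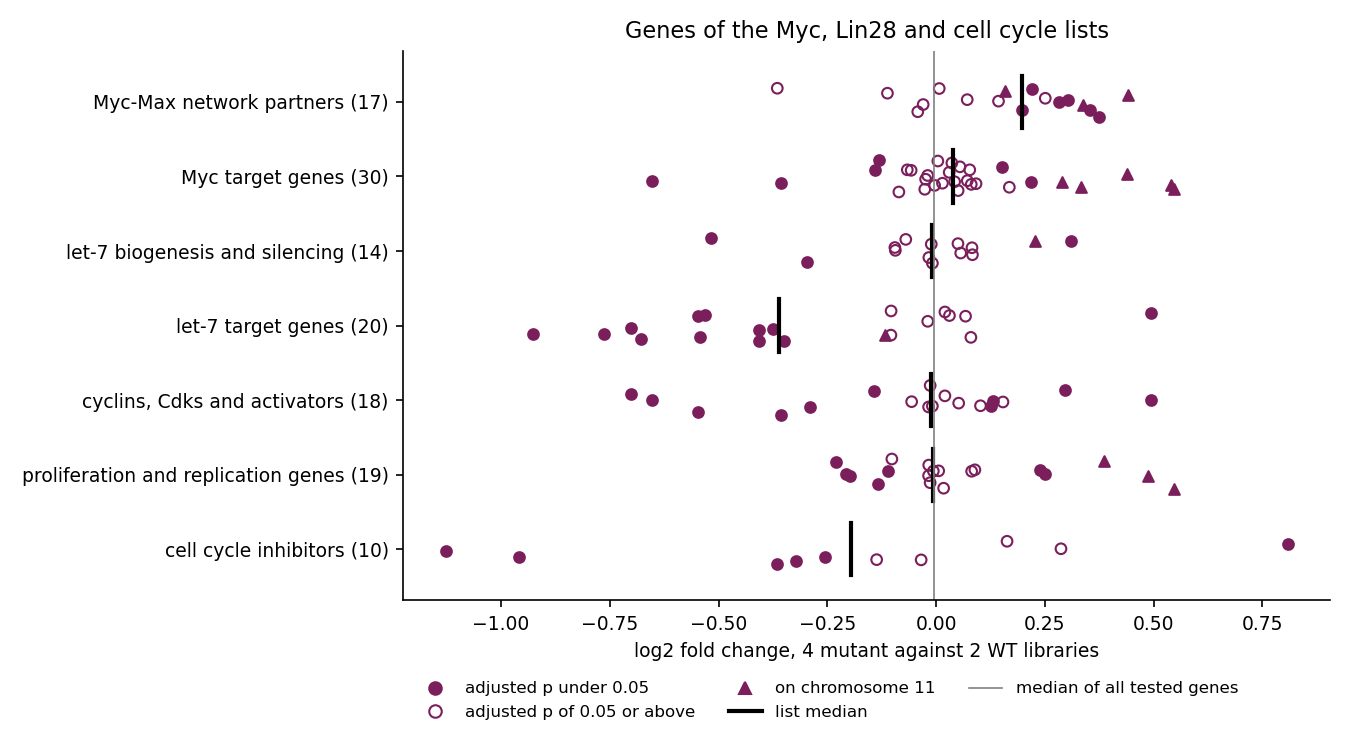
Log2 fold changes, 4 mutant against 2 WT libraries (horizontal axis), of each tested gene of the 7 lists, with the number tested in brackets; filled symbols have an adjusted p under 0.05, triangles lie on chromosome 11, black bars are list medians and the grey line is the median of all genes. The let-7 targets have the lowest median (-0.36) and the Myc and Max partners the highest (0.20).

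ATAC-seq marks open chromatin as peaks over local background. Within 10 kb of the annotated start sites of the 7 genes there were 35 regions with a peak in at least 1 library. Of the 20 with a peak in both WT libraries, 16 had one in all 4 mutant libraries, 80.0% (exact binomial 95% interval 56.3 to 94.3, counting error only) against 78.7% of 62202 such regions in the whole genome. The 5′ end of each of the 7 genes lay in or beside a region with a peak in all 6 libraries. Peak lists record presence above a threshold, so a missing peak is not a closed site, and no test was made.

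At the 5′ end of Lin28a, the region chr4:134018465-134019138 had a fold enrichment of 3.97 and 4.12 in the WT libraries, 4.79 and 3.76 in Mut18, with 4.94 and 5.70 in Mut43. At that of Lin28b, chr10:45485670-45487066, it was 8.61 and 9.21 in the WT libraries, 8.42 and 7.72 in Mut18, with 8.55 and 9.18 in Mut43. In fold enrichment the groups overlapped at both genes, whose RNA was lower. The start region of Trim71, chr9:114564024-114564611, had 3.92 and 4.43 in the WT libraries, 4.58 and 4.24 in Mut18, with 4.68 and 4.85 in Mut43, and also overlapped. In Mycl, Max and Mycn, 3 of 7, every mutant value was above both WT values, as in 14.5% of 48984 regions with a peak in all libraries, and in none of the 7 were all mutant values below, as in 7.52%. Mycn was lowest of the 7, between 2.82 and 3.62, and its RNA was lower in the mutants. By the −log10 q value of the peak, larger for a stronger call, the start region of Lin28b did separate. It was 40.7 and 37.6 in WT, 22.1 and 20.1 in Mut18, with 24.5 and 25.9 in Mut43. In Mycl every mutant q value was above both WT values, and in Lin28a and Trim71 they overlapped. The share of all regions that separate in this way was not worked out, and the cause was not tested. Fold enrichment and q depend on the depth of a library, which the lists do not give.

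Of the 35 regions, 16 had a peak in all 6 libraries, and the rest were seen in some libraries only. The region chr15:61993270-61993435, 7962 bases past the 5′ end of Myc and beyond its 3′ end, had a peak of 4.22 and 5.55 in WT and none in the 4 mutants, the only one of the 35 seen in both WT libraries and no mutant, against 2913 of 89596 regions in the whole genome. None of the 35 was seen in all 4 mutants and no WT library, against 657 of 89596. A Lin28a region 1248 bases into the gene lacked a peak in Mut18_1 only, and one 11823 bases in had a peak in WT_1 and all 4 mutants. A Lin28b region 12598 bases in had one in both WT libraries, Mut18_2 and Mut43_1. A Max region that begins 3786 bases upstream had one in both WT libraries and Mut18_1. WT_1, with the most peaks of the 6 (78536 against 63588 to 69811), alone held 7 of the 35 regions, and WT_2 alone held 1, in Max. Regions with a peak in mutants and no WT library were 1 upstream of Myc in both Mut43 libraries, 1 upstream of Mycn in Mut18_1 and Mut43_1, 1 in Mycl in Mut18_2 and 1 in Max in Mut43_1. The last 2 were 1 upstream of Myc, in WT_1, Mut18_2 and Mut43_2, and 1 in Max, in WT_1 and Mut18_2.

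**Figure D5:**
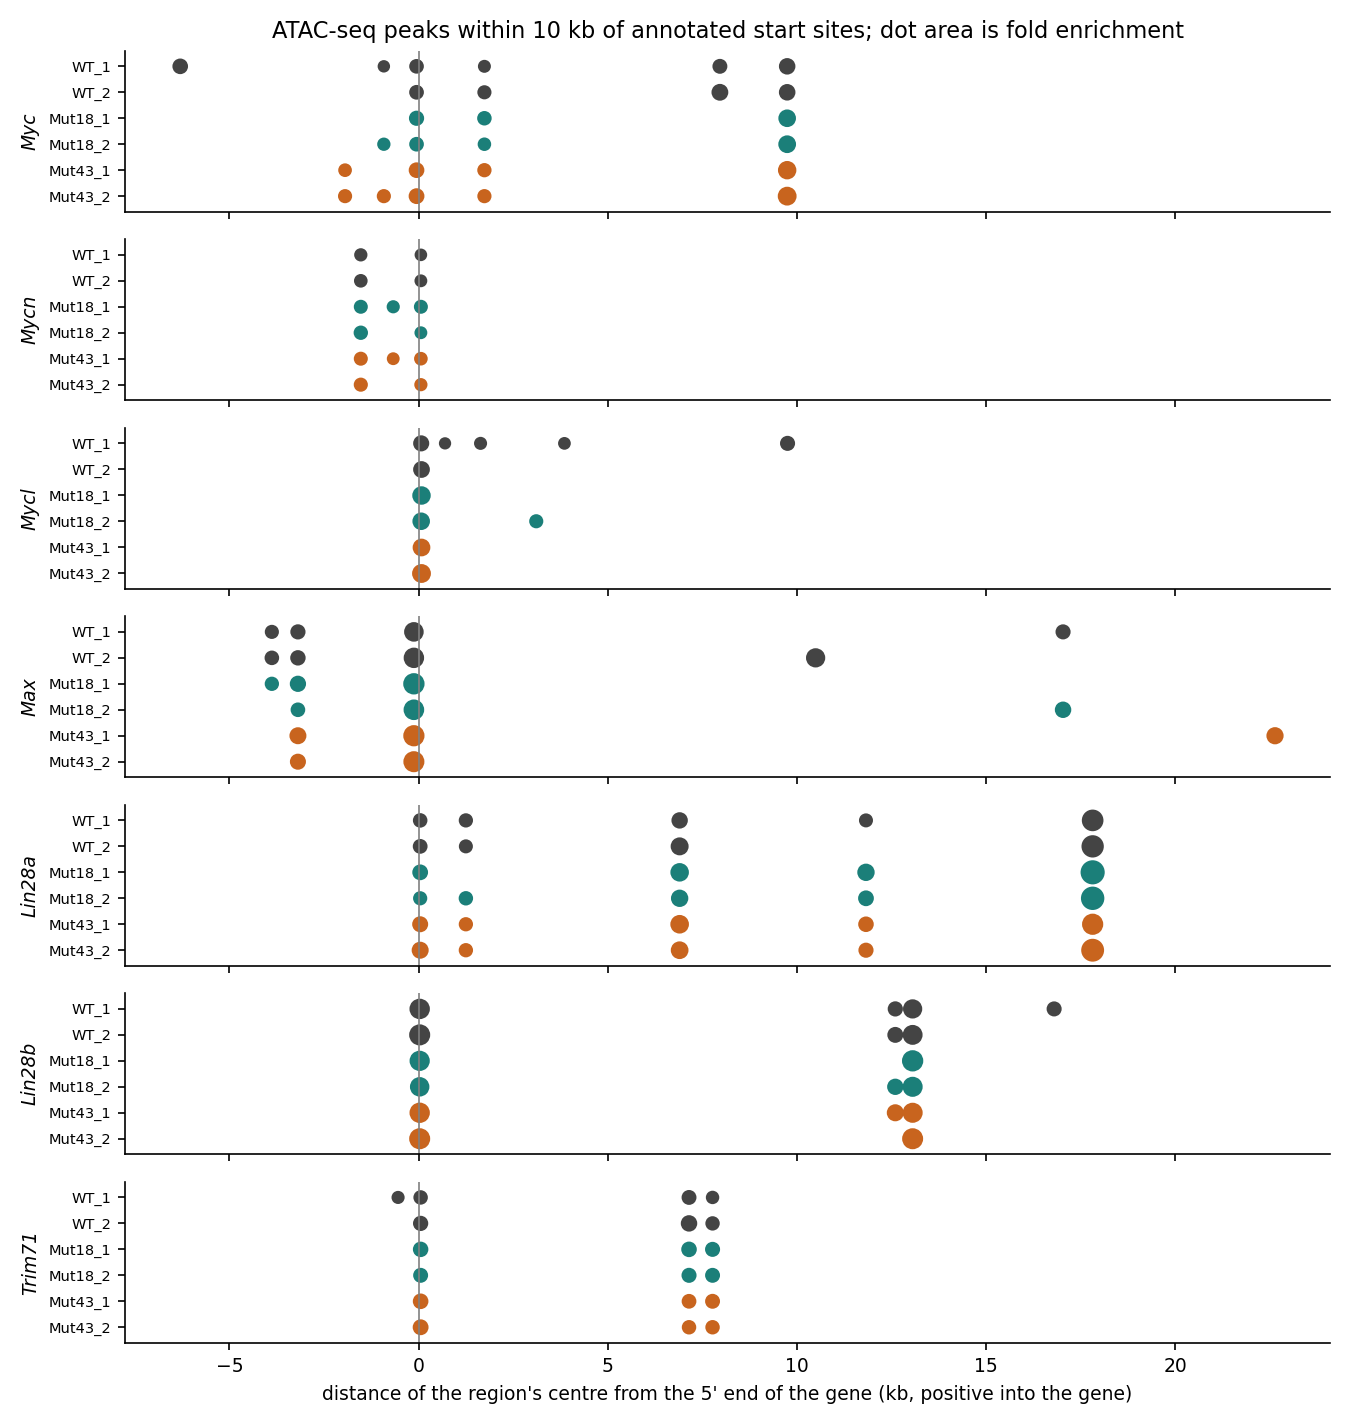
ATAC-seq regions within 10 kb of an annotated start site of each gene, by distance of the centre from the 5′ end of the gene (kb, horizontal axis) and library (vertical axis); dot area is the fold enrichment of the peak. Each gene has a dot near 0 in all 6 libraries, and Myc has one region near 8 kb in WT_1 and WT_2 only.

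The sequence at these open start sites is shown for the 3 genes of the Lin28 and Trim71 group, upstream of the annotated transcript. The first and last come from RefSeq promoter windows. The Lin28b stretch comes from the genome of the same build, upstream of the GENCODE start. All 3 are printed 5′ to 3′ on the transcript strand.
Lin28a (chr4:134018842-134019066, minus strand): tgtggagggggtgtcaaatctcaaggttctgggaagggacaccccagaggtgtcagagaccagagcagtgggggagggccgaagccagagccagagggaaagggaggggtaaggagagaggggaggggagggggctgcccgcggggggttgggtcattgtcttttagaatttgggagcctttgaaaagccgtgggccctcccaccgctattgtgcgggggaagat
Lin28b (chr10:45486396-45486645, minus strand): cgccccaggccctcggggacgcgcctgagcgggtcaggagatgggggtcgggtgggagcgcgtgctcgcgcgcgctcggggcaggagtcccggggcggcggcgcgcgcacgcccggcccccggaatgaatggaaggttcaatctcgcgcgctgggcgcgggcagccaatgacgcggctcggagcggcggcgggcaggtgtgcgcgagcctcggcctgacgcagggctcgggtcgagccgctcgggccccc
Trim71 (chr9:114564370-114564619, minus strand): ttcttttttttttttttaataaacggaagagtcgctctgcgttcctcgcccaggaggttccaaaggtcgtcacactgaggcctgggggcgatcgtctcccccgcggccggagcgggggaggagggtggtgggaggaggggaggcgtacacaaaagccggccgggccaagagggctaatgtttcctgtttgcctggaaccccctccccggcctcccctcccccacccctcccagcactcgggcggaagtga
The G and C content of the 3 was 61.3%, 78.4% and 62.8%, and none holds CACGTG. The E-box was searched in the RefSeq windows from 250 bases before to 50 after the start, where it reads the same on both strands. RefSeq windows were given for 6 of the 7 genes, all but Myc. It stood in those of Max and Lin28b and in 7.15% of 32851 windows. In Max it spans the start, in capitals in the 30 bases chr12:76962234-76962263 (minus strand): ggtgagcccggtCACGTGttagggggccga. In Lin28b the RefSeq start lies far inside the GENCODE gene, where none of the 6 libraries had a peak over the window, and the E-box is 49 bases upstream of it, in capitals in chr10:45470202-45470451 (minus strand): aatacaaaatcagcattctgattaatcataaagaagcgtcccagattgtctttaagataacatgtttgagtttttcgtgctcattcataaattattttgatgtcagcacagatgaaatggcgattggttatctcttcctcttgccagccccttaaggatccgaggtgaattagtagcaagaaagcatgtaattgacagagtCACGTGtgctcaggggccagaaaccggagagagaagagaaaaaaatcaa. Of the Myc target genes, 7 of the 24 with a window held CACGTG, as did 5 of the 17 Myc and Max partners. A gene was counted here if any of its windows held it, whereas the 7.15% is a share of windows.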

How the data were processed

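mRNA-seq and ATAC-seq were analysed in 6 libraries each, 2 per line, out of 69 samples in the series. For RNA the authors sequenced paired-end reads, mapped them to mm10 together with the fly genome dm6 and deposited raw read counts per gene. Per the labels the tools of the series were Bowtie2 (2.3.4.2), deepTools (3.3.0), STAR, SAMtools, DESeq2 and MACS2, with no role stated; the counting program, annotation and strand setting are not given in the sources used here. For ATAC-seq the authors deposited 1 peak list per library, with a fold enrichment (a ratio over local background), −log10 p and q values, and a whole-number score made from q.

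Genes were filtered with edgeR (4.0.16, R 4.3.3) at a minimum count of 10, scaled by TMM and tested by the quasi-likelihood F-test, with Benjamini-Hochberg adjustment over all 14061 genes and a threshold of 0.05. Mutants (n = 4) were compared with WT (n = 2) in a fit with 2 groups, and the clones in one with 3. Normalized counts are counts divided by the TMM-scaled library size and multiplied by the mean of those sizes. Replicate numbers were not used as a block, since same-numbered libraries did not deviate together (correlations of -0.060, 0.015 and -0.027 over 11077 genes). On simulated counts with 3-fold changes in 200 of 13856 genes, the mutant against WT test recovered 183 with 3 false calls. The 7 genes changed by less than 2-fold, so these figures do not apply to changes of their size. Gene models were GENCODE M21 and RefSeq, both GRCm38; of 16263 symbols 15616 matched directly and 477 by a synonym. Peaks of the libraries were merged where they overlapped by at least 1 base.

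The members and lists were chosen with earlier results of these data known. From each list the text names the 2 genes in each direction with the largest log2 fold change among those passing, at a mean of at least 50 normalized counts, and for each member the 3 genes of most similar profile. The value of 1 gene of the let-7 target list is not reported here. The other list genes and regions that are named were chosen after their values were seen. Alternatives were another scaling, filter, test or dispersion, a replicate block and leaving out each library; list counts under them were added after seeing the data.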

Additional observations from a re-analysis of the deposited data

How the results depend on the processing

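Lin28a, Lin28b and Trim71 passed between mutants and WT in all 14 alternatives run, with log2 fold changes of -0.31 to -0.25, -0.49 to -0.42 and 0.27 to 0.39. Mycl passed neither by library size alone (0.20, adjusted p = 0.0853 in edgeR) nor in DESeq2 (0.24, adjusted p = 0.0976), and ranged from 0.081 to 0.43 with 1 library left out, not passing without WT replicate 1, Mut18 replicate 2, Mut43 replicate 1 or Mut43 replicate 2. Mycn ranged from -0.30 to -0.11 and did not pass without WT replicate 2. Mycl had the fewest counts of the 7 genes and the largest standard error. Over all genes, 1255 differed when a 2-fold change was also required, against 6749 without, 5428 in DESeq2 and 5206 to 6648 with 1 library left out. With the replicate block 6604 differed, 5 members still passed between mutants and WT, and Mycl passed in Mut43 (0.25, adjusted p = 0.0423 in edgeR); the numbers do not pair the libraries. Library size alone moved the median of all genes to -0.043 and the share of higher among differing genes from 49.0% to 41.1%. The causes of these changes were not tested.

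Some values near 0 turned sign. Myc in Mut43 against WT was 0.0014 with DESeq2 size factors and in DESeq2, 0.023 with chromosome 11 left out of the scaling, 0.0087 with no filter and -0.011 to 0.015 with 1 library left out. Between the clones, by library size alone, Mycl was -0.0032 and Max -0.0065, and with 1 library left out they ranged from -0.089 to 0.12 and from -0.033 to 0.052. In Mut18 against WT, Myc passed by library size alone (-0.15) and at a mean of at least 50 counts (-0.13), and Trim71 did not without Mut18 replicate 2 (0.19). The share of ATAC-seq regions kept was 75.0% to 90.9% under other thresholds, overlaps and windows, and 56.7% to 85% with 1 library left out. Leaving out a WT library changes the set, since a peak in the other WT library then suffices. Leaving out a mutant library asks for a peak in the remaining mutant libraries only. These shares are therefore not the same measure as the main one.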
